A study of Homo sapiens with 12 samples.

Results

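Genes that write, read or erase the chemical marks of chromatin were followed across 4 groups of HepG2 libraries. The genes were picked by symbol and by known function, as a list of 54 symbols, and 53 of them were found among the 16389 genes of the deposited count table. The remaining gene, NSD1, was not analysed here. HepG2 is a cell line grown from a human liver tumour, used here from 1 supplier at passage 9, so that cells of other donors or primary hepatocytes were not represented. LG cells were kept in low glucose (5.5 mM), and HG cells were cultivated for 48 h in medium raised to 20 mM D-glucose. LGV and HGV cells had the same 2 media and then 1 mM valproic acid (VPA) for another 12 h. All groups shared the basal medium with fetal bovine serum and antibiotics, and each had 3 libraries. The sources do not state whether untreated cells were harvested at 48 h or together with the treated cells, so an added 12 h in culture and VPA cannot be told apart. Nothing in the labels says that replicates came from separate cultures, and p-values therefore measure the spread between these libraries only.

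Histone acetyltransferases place acetyl groups on lysines of histone tails, bromodomain proteins bind the acetylated tails, and histone deacetylases, the enzymes inhibited by VPA, remove the groups again. Histone methyltransferases and demethylases set methyl marks that accompany active or silent genes, among them the H3K27 mark of Polycomb repressive complex 2 (PRC2), which chromobox proteins of PRC1 recognise. DNA methyltransferases methylate cytosine and TET dioxygenases oxidise the methyl group. In liver cells these enzymes draw on acetyl-CoA, S-adenosylmethionine and 2-oxoglutarate, which are products of nutrient metabolism.

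Levels are given as CPM, reads of a gene scaled to a common library total after edgeR's TMM factors. Between 29798442 and 45572694 reads per library were counted on genes, and the lowest count of any of the 53 genes in any library was 63 (KAT2B in HG). Counting alone gives a coefficient of variation (CV) of 12.6% at 63 reads, and its median over the genes and groups was 2.43%. It reached or exceeded the observed CV between libraries in 19 of the 212 pairs of gene and group. The most sparsely counted of these were KAT2B in HG, at 12.0% beside an observed 3.27%, and SUV39H1 in LGV, at 9.17% beside 5.78%, so that the small SD of these values understates their error. The common coefficient of biological variation was 0.169 in LG, 0.114 in HG, 0.125 in LGV and 0.142 in HGV. The liver origin of the cells was checked on markers. Summed over 10 hepatocyte markers (such as ALB and APOA1) the LG libraries held from 52887 to 59512 CPM and those of LGV from 40509 to 41536, without overlap. The sum lay between 54444 and 62100 CPM in HG libraries and between 48060 and 62488 CPM in HGV libraries, which overlapped. The part of these markers in the results was not tested. Markers of blood, endothelial, stromal and neuronal cells (CD14, CDH5, COL1A1, ACTA2 and RBFOX3) summed to between 19.1 and 22.2 CPM in LG, 40.7 and 44.6 in HG, 13.6 and 14.2 in LGV and 25.1 and 31.4 in HGV, and 4 further ones (PTPRC, CD3E, PECAM1 and COL1A2) were not analysed here. ACTA2 made up most of this sum and was lower with VPA in both media (-0.76 and -0.77 on the log2 scale, HGV against HG and LGV against LG). COL1A1 went the other way (2.52 and 2.36, both called), from between 0.125 and 0.419 CPM in the untreated libraries to between 0.747 and 2.64 with VPA. CDH5 was higher in HGV than in HG (1.65, called), with a mean of 0.410 CPM in HG and 1.29 in HGV. The part of these markers was not tested either. A gene was called when edgeR's quasi-likelihood F test gave a false discovery rate (FDR, Benjamini-Hochberg over all genes tested) of 0.05 or less. Changes are log2 fold changes with their SE. These are bulk libraries, in which fewer cells that express a gene and less RNA per cell cannot be told apart.

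VPA lowered more of these genes than it raised, in both media, and so did high glucose. All 53 genes were tested in every comparison. In HGV against HG, 32 were called (60.4%), beside 46.1% of the 16188 genes tested. Of these 32, 7 were higher (13.2% of the 53, beside 25.8% of all genes) and 25 lower (47.2%, beside 20.2%). In LGV against LG, 33 were called (62.3%, beside 41.6% of 15944 genes), 7 of them higher (13.2%, beside 21.7%) and 26 lower (49.1%, beside 19.9%). The median log2 fold change of the 53 genes was -0.31 in HGV against HG and -0.29 in LGV against LG, where that of all genes was 0.025 and -0.0057. In HG against LG, 20 were called (37.7%, beside 24.7% of 15452 genes), 5 higher (9.43%, beside 12%) and 15 lower (28.3%, beside 12.7%), with a median of -0.086 for the 53 genes and 0.011 for all genes. Without HG replicate 3 the 20 calls fell to 13 (5 higher and 8 lower). The share called among all genes fell too, to 13.5% (7.26% higher and 6.19% lower). In HGV against LGV, 29 were called (54.7%, beside 40.7% of 16208 genes), 8 higher (15.1%, beside 21.2%) and 21 lower (39.6%, beside 19.5%), with medians of -0.28 and 0.0096. The balance between higher and lower depended on the scaling. Without TMM factors the median of all genes moved to 0.15 in HGV against HG, 0.16 in LGV against LG, 0.11 in HG against LG and 0.095 in HGV against LGV. The members then split into 8 higher and 20 lower, 9 and 19, 5 and 11, and 10 and 15 in these 4 comparisons. There 32%, 28.2%, 14.1% and 23.2% of all genes were higher and 15%, 12.3%, 8.39% and 14.2% lower. With offsets for GC content and gene length the medians of all genes were -0.18, -0.17, -0.036 and -0.052. The members then split into 4 and 36, 4 and 32, 5 and 20, and 7 and 20. Of all genes 20.6%, 16.7%, 13.2% and 19.7% were higher and 38.5%, 31.3%, 19.1% and 24.1% lower. The members had at least 63 reads in every library, while the genes tested went down to a mean of 10. With the filter set at 1 CPM in 3 libraries, 25, 26, 15 and 20 members were lower. Of all genes 22.2%, 21.9%, 14.6% and 21.1% were lower there, in the same order. The authors reported that under high glucose VPA raised genes of low initial expression and lowered those of high expression. The part of expression level in these splits was not tested.

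**Figure D1:**
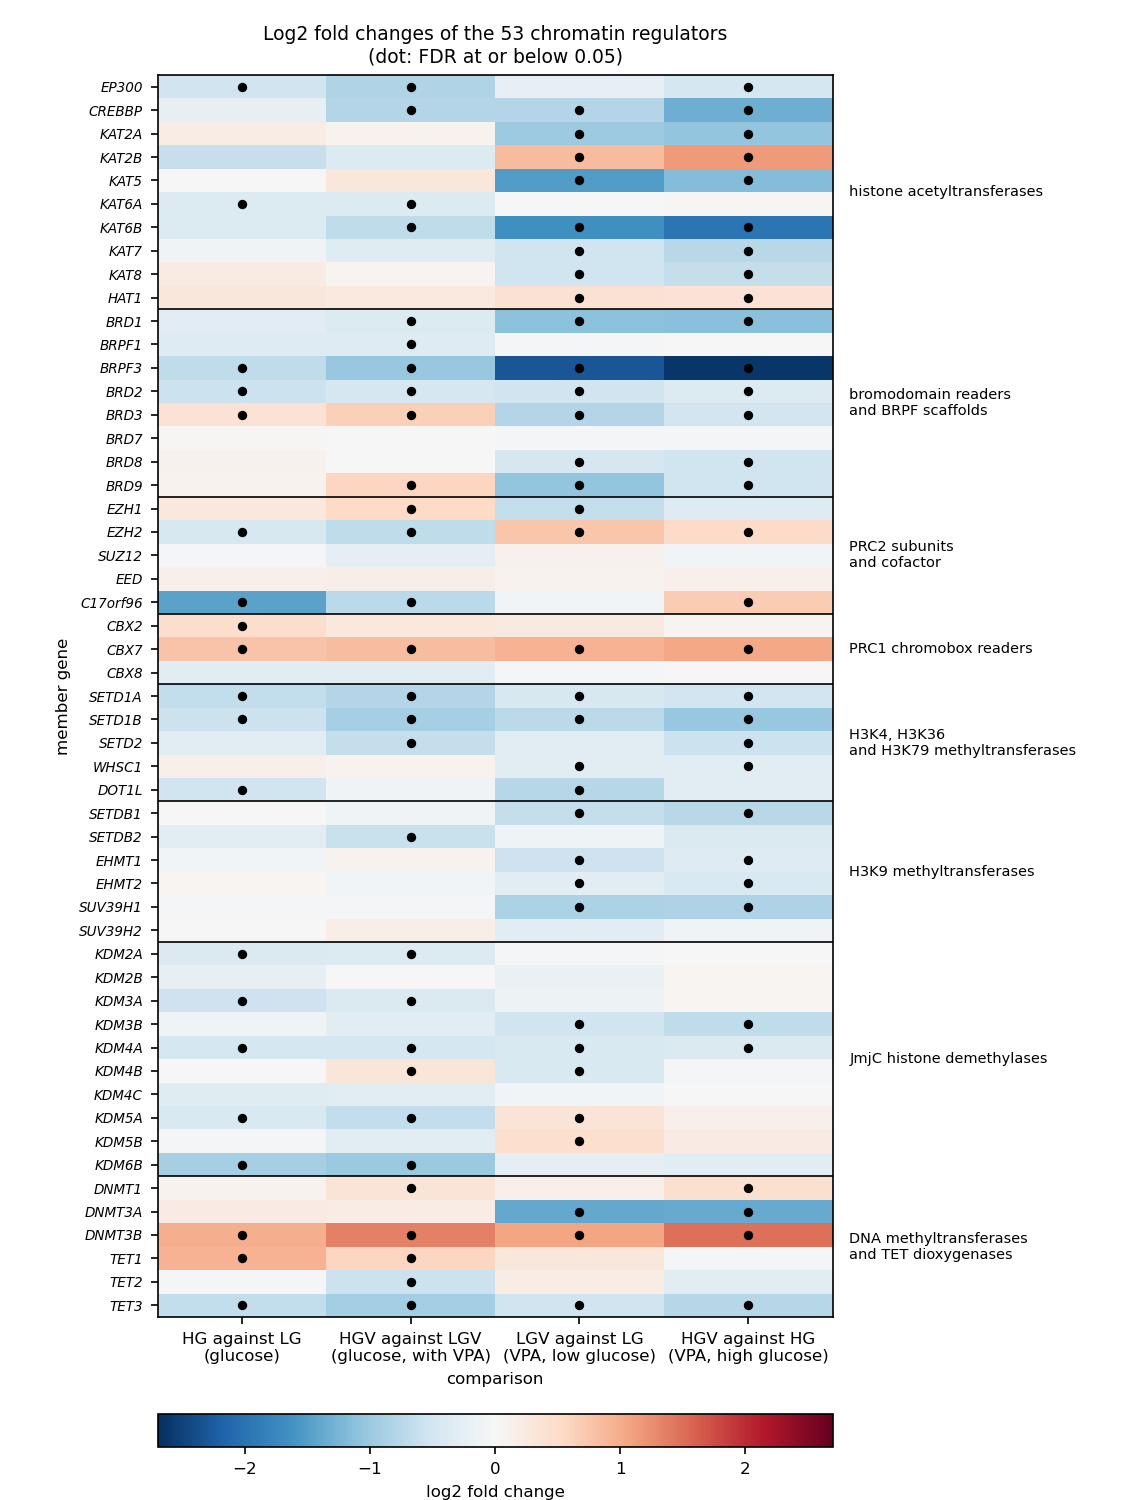
Log2 fold change (colour, blue lower and red higher) of each of the 53 genes (rows, grouped by role) in the 4 comparisons (columns); a dot marks an FDR of 0.05 or less. The right-hand columns, VPA in each medium, hold 33 and 32 dots, mostly blue in the acetyltransferases, bromodomain proteins and histone methyltransferases, and DNMT3B and CBX7 are red in all 4 columns.

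Histone acetyltransferases had the most calls in number under VPA. In HGV against HG 9 of 10 were called (90%, beside 46.1% of all genes). Of these, 2 were higher (20%, beside 25.8%) and 7 lower (70%, beside 20.2%). In LGV against LG 8 of 10 were called (80%, beside 41.6%), 2 higher (20%, beside 21.7%) and 6 lower (60%, beside 19.9%). The methyltransferases of H3K4, H3K36 and H3K79 had the same share called there, 80%. KAT6B and KAT6A are MYST-family enzymes that acetylate histone H3. KAT6B was at 58.8, 53.05 and 50.7 CPM in LG, 49.7, 38.2 and 36.9 in HG, 17.6, 16.3 and 16.9 in LGV and 11.3, 9.49 and 11.2 in HGV. The 6 VPA libraries all lay below the 6 untreated ones, and the log2 fold change was -1.97 ± 0.14 in HGV against HG (FDR 4.35e-07) and -1.67 ± 0.12 in LGV against LG (FDR 1.36e-07). Its relative KAT6A ranged over the same values with and without VPA, with means of 83.5 ± 5.66 CPM (SD, n = 3) in LG and 83.9 ± 7.19 in LGV, and of 63.9 ± 6.02 in HG and 65.4 ± 11.04 in HGV. It was called in neither VPA comparison.

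KAT5, the catalytic subunit of the TIP60 complex, was at 23.1, 21.3 and 22.8 CPM in LG, 18.6, 24.4 and 23.6 in HG, 6.93, 8.61 and 8.03 in LGV and 9.01, 12.1 and 8.53 in HGV. No VPA library reached the lowest untreated one, and the change was -1.50 ± 0.15 in LGV against LG (FDR 2.24e-06) and -1.17 ± 0.16 in HGV against HG (FDR 8.15e-05). Exons of KAT5 overlap RNASEH2C on the other strand over 1439 bases, and the sources do not say if strand entered the counting, so reads of the 2 genes may be mixed. CREBBP and EP300 encode the paired coactivators CBP and p300, which acetylate H3K27 at enhancers. CREBBP was at 212, 222 and 167 CPM in LG, 174, 178 and 153 in HG, 96.3, 127 and 122 in LGV and 79.4, 56.4 and 65.6 in HGV. It was lower in both media, at -0.79 ± 0.14 in LGV against LG (FDR 0.000402) and -1.33 ± 0.13 in HGV against HG (FDR 5.03e-06) on the log2 scale. EP300 was at 214, 221 and 174 CPM in LG, 146, 142 and 128 in HG, 141, 189 and 188 in LGV and 116, 80.9 and 101 in HGV. It was lower in HGV than in HG, without overlap (-0.48 ± 0.13, FDR 0.0091), while LGV and LG overlapped (-0.22 ± 0.14, FDR 0.224). The VPA change of EP300 was not shown to differ between media (interaction -0.25 ± 0.20, FDR 0.692).

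KAT2A and KAT2B (GCN5 and PCAF) are alternative catalytic subunits of the SAGA and ATAC complexes, and they went opposite ways. KAT2A was at 108, 92.9 and 97.5 CPM in LG, 108, 114 and 117 in HG, 44.9, 51.6 and 53.7 in LGV and 52.6, 54.7 and 54.6 in HGV. Each VPA library held less than each untreated one (-1.07 ± 0.095, FDR 2.14e-06 in HGV against HG, and -0.98 ± 0.12, FDR 1.37e-05 in LGV against LG). KAT2B was at 2.95, 4.27 and 2.48 CPM in LG, 2.00, 2.09 and 2.13 in HG, 5.79, 5.65 and 6.11 in LGV and 4.54, 4.26 and 4.94 in HGV. Here every VPA library exceeded the untreated libraries of its medium (1.14 ± 0.17, FDR 0.000156, and 0.86 ± 0.22, FDR 0.00623). KAT7 (HBO1) and KAT8 (MOF), the latter the main H4K16 acetyltransferase, were lower in both media, KAT7 at -0.74 and -0.53 and KAT8 at -0.64 and -0.54 (HGV against HG, then LGV against LG). HAT1, which acetylates newly made histone H4, was higher in both, by 0.39 and 0.40. The HAT1 calls were lost when 1 of several libraries was left out, which also leaves the test with less power. That of HGV against HG was lost without HG replicate 1 (0.38), HG replicate 2 (0.28), HGV replicate 2 (0.28) or HGV replicate 3 (0.42), and that of LGV against LG without LG replicate 1 (0.33) or LGV replicate 3 (0.37).

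Among the bromodomain readers and BRPF scaffolds, 6 of 8 were lower in each VPA comparison (75%) and none was higher. Of all genes 20.2% were lower and 25.8% higher in HGV against HG, and 19.9% and 21.7% in LGV against LG. BRPF3, a scaffold that pairs with KAT7, had the largest change of all 53 genes in either VPA comparison. It was at 272, 303 and 182 CPM in LG, 151, 159 and 149.6 in HG, 43.2, 56.1 and 51.6 in LGV and 27.5, 22.9 and 24.7 in HGV. The LGV and HGV libraries lay far below LG and HG, at log2 fold changes of -2.31 ± 0.17 (FDR 1.79e-07) and -2.62 ± 0.11 (FDR 1.04e-08). BRD1, also known as BRPF2 and likewise a KAT7 scaffold, was at 74.3, 79.5 and 66.3 CPM in LG, 55.9, 58.6 and 60.4 in HG, 30.5, 37.2 and 34.2 in LGV and 28.4, 26.4 and 25.00 in HGV. It separated in the same way (-1.10 ± 0.12, FDR 6.29e-06, and -1.13 ± 0.10, FDR 2.93e-06). BRPF1, the scaffold of KAT6A and KAT6B, overlapped between treated and untreated libraries in both media, with means of 38.3 ± 6.09 CPM in LG and 36.9 ± 3.36 in LGV, and 29.4 ± 1.32 in HG and 29.2 ± 0.834 in HGV.

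**Figure D2:**
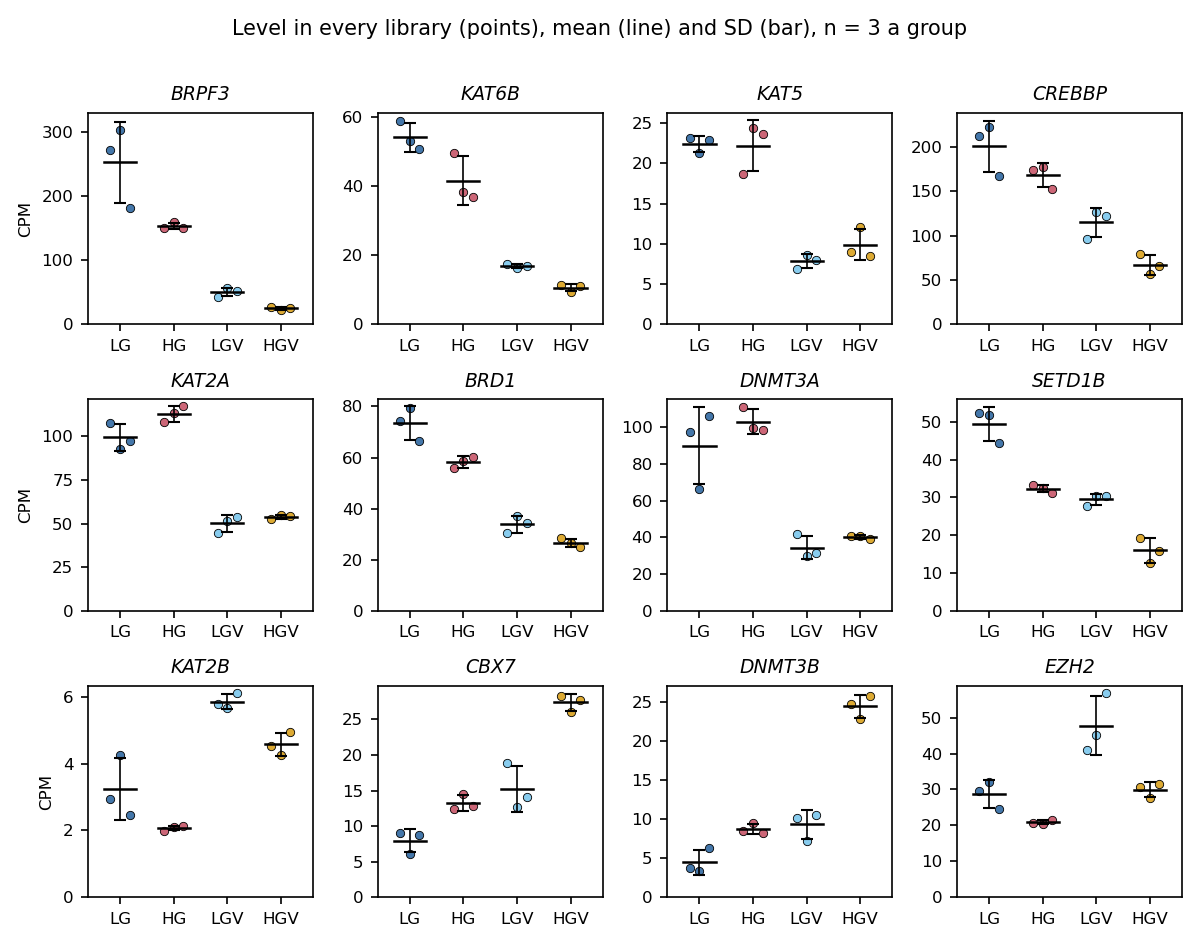
Level (CPM, axis from 0) of 12 genes in every library (points, coloured by group), with the mean (line) and SD (bar) of the 3 libraries of LG, HG, LGV and HGV. BRPF3, KAT6B, KAT5, CREBBP, KAT2A, BRD1, DNMT3A and SETD1B lie lower with VPA in both media, and KAT2B, CBX7, DNMT3B and EZH2 lie higher.

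Of the bromodomain proteins proper, BRD9, a subunit of the non-canonical BAF remodelling complex, was at 22.2, 17.5 and 30.4 CPM in LG, 23.4, 25.8 and 25.1 in HG, 12.99, 8.44 and 11.9 in LGV and 15.3, 17.4 and 18.2 in HGV. It was lower with VPA in both media, at -1.06 ± 0.21 in LGV against LG (FDR 0.000899) and -0.55 ± 0.12 in HGV against HG (FDR 0.00218) on the log2 scale, and it shares 222 exon bases with ZDHHC11 on the same strand. BRD2 and BRD3, BET proteins that bind acetylated histone H4, were lower, at -0.37 and -0.50 in HGV against HG and at -0.53 and -0.78 in LGV against LG. BRD8, a subunit of the TIP60 complex, was lower, at -0.53 and -0.46, the second of which lost its call without LGV replicate 1 (-0.32). BRD7, a subunit of the PBAF complex, lay between 79.6 and 92.4 CPM in all 12 libraries and was called in no comparison.

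Promoter sequence is shown for the genes that moved the same way in both media, to let their windows be compared. The windows are those of the 4 lower and 3 higher genes with the largest mean VPA change whose 250 bases before the RefSeq start hold no annotated UTR. The sequences come from the RefSeq promoter table (GRCh38.p14) and were found unchanged, once each, in GRCh37, the build of the counts. They are written 5′ to 3′ along the gene. Capitals mark the GC box GGGCGG, the letters bound by SP1-family factors, or its reverse complement. The lower genes were BRPF3 at chr6:36164271-36164520 (plus strand), BRD1 at chr22:50221522-50221771 (minus strand), CREBBP at chr16:3930715-3930964 (minus strand) and KAT2A at chr17:40273386-40273635 (minus strand). The higher genes were DNMT3B at chr20:31367408-31367657 (plus strand), which lies inside the GENCODE gene, downstream of its first annotated start, KAT2B at chr3:20081688-20081937 (plus strand) and CBX7 at chr22:39548686-39548935 (minus strand).
BRPF3: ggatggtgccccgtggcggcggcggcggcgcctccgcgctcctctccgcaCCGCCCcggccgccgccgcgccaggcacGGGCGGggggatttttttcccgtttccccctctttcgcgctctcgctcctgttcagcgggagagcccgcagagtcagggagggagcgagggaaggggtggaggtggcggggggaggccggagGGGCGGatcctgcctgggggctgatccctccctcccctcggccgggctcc
BRD1: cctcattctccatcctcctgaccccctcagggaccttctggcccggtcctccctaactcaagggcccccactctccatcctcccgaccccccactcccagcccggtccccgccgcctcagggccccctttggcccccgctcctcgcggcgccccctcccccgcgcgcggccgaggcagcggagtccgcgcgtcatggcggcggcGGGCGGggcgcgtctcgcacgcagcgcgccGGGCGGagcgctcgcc
CREBBP: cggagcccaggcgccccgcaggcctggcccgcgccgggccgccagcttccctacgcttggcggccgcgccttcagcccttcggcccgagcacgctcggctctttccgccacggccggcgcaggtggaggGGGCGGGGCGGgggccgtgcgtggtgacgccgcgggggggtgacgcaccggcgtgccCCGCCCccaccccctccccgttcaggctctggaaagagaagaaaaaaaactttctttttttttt
KAT2A: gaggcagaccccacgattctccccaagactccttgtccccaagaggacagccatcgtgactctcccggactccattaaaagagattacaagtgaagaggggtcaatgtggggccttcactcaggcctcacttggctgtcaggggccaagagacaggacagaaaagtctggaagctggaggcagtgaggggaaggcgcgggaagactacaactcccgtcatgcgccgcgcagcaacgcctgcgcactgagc
DNMT3B: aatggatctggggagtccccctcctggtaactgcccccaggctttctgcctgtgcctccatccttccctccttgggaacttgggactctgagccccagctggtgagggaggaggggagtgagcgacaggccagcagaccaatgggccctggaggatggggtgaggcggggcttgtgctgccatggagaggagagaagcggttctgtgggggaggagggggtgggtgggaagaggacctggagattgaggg
KAT2B: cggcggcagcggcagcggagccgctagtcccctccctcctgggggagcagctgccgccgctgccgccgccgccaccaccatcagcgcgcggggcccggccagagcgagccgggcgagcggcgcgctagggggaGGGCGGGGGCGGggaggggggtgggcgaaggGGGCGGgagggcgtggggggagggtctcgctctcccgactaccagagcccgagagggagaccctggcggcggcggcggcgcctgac
CBX7: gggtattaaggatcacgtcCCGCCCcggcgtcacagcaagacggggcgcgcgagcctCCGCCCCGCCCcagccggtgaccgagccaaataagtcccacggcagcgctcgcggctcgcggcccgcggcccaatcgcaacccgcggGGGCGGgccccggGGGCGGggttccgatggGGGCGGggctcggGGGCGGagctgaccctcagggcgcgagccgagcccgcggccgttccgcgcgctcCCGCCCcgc
GC boxes stood in 3 of the 4 lower and 2 of the 3 higher genes, and the number per window ran from 0 in KAT2A and DNMT3B to 8 in CBX7. CG dinucleotides numbered 3 in DNMT3B, 11 in KAT2A and between 29 and 41 in the others. Of the 53 genes, 46 had a window in the table. A GC box was found on either strand in 27 of them (58.7%, beside 66% of the windows of 11579 genes in the count table), the CCAAT box in 13 (28.3%, beside 34.9%) and the E-box CACGTG in 7 (15.2%, beside 8.7%), while the TATA box TATAAA was in none (5.5% of all). A match is a run of letters in this window and no evidence of binding.

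Polycomb genes moved in both directions under VPA. EZH2, the main H3K27 methyltransferase of PRC2, was at 29.5, 32.2 and 24.7 CPM in LG, 20.6, 20.5 and 21.6 in HG, 41.00, 45.2 and 56.95 in LGV and 30.7, 27.5 and 31.6 in HGV. All LGV libraries exceeded LG and all HGV libraries exceeded HG (0.74 ± 0.15, FDR 0.000874, and 0.51 ± 0.11, FDR 0.00212). Its paralog EZH1 was lower in LGV than in LG (-0.64, FDR 0.00485) and was not called in HGV against HG, where the means were 17.9 ± 3.04 and 22.7 ± 2.74 CPM. C17orf96, also named EPOP, a cofactor that ties PRC2 to elongin, was at 334, 319 and 275 CPM in LG, 109, 109 and 118 in HG, 278, 319 and 279.7 in LGV and 166, 192 and 181 in HGV. It was higher in HGV than in HG without overlap (0.68 ± 0.10, FDR 0.00013) and overlapped between LGV and LG (-0.07 ± 0.12, FDR 0.686). The core subunits SUZ12 and EED were called in no comparison. SUZ12 ranged from 21.1 to 30.9 CPM and EED from 10.4 to 14.7 CPM over the 12 libraries.

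CBX7, a PRC1 protein that binds the H3K27 mark, was at 9.05, 6.09 and 8.78 CPM in LG, 12.5, 14.5 and 12.9 in HG, 18.9, 12.7 and 14.04 in LGV and 28.3, 26.1 and 27.8 in HGV. It was higher with VPA in both media (1.04 ± 0.12, FDR 1.5e-05 in HGV against HG, and 0.94 ± 0.20, FDR 0.0016 in LGV against LG), and the HGV libraries stood above all others. Its paralogs CBX2 and CBX8 were called in neither VPA comparison.

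Of the 5 methyltransferases of H3K4, H3K36 and H3K79, 4 were lower in each VPA comparison (80%). Of all genes 20.2% were lower in HGV against HG and 19.9% in LGV against LG. SETD1B, a catalytic subunit of the COMPASS complex for H3K4, was at 52.2, 51.8 and 44.3 CPM in LG, 33.2, 32.5 and 31.2 in HG, 27.8, 30.2 and 30.4 in LGV and 19.3, 12.7 and 15.9 in HGV. Treated libraries lay below untreated ones in both media (-1.02 ± 0.15, FDR 0.000113, and -0.73 ± 0.12, FDR 0.000182). The related SETD1A was lower, at -0.52 in HGV against HG and -0.43 in LGV against LG, where LGV replicates 2 and 3 just reached LG replicate 3. That second call was lost without LG replicate 1 (-0.37), LG replicate 2 (-0.37) or LGV replicate 1 (-0.26). DOT1L, the H3K79 methyltransferase, was at 110.1, 96.7 and 91.6 CPM in LG, 60.04, 75.5 and 65.6 in HG, 53.1, 59.04 and 61.1 in LGV and 58.7, 42.9 and 62.02 in HGV. It was lower in LGV than in LG (-0.77 ± 0.12, FDR 0.000106), and HGV and HG overlapped. SETD2, which trimethylates H3K36, was lower in HGV than in HG (-0.58, and -0.46 and not called without HG replicate 1). WHSC1 (NSD2), which dimethylates H3K36, was lower in both by less, at -0.31 and -0.29. Its call in LGV against LG was lost whichever library was left out (-0.32, -0.27 and -0.29 without LG replicates 1 to 3, and -0.27, -0.27 and -0.31 without those of LGV), and that in HGV against HG without HG replicate 2 (-0.26), HG replicate 3 (-0.33) or HGV replicate 3 (-0.31).

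Among the 6 H3K9 methyltransferases, which write marks of silent chromatin, the same 4 were lower in both VPA comparisons (66.7%). Of all genes 20.2% were lower in HGV against HG and 19.9% in LGV against LG. SUV39H1 was at -0.82 in HGV against HG and -0.86 in LGV against LG, SETDB1 at -0.75 and -0.65, EHMT1 at -0.34 and -0.56, and EHMT2 at -0.41 and -0.31 (log2 fold changes). SUV39H1 was among the weakest of the 53 genes, with 6.48 ± 0.602 CPM in LG and 3.55 ± 0.205 in LGV. The call of EHMT2 in LGV against LG did not outlast the loss of LG replicate 1 (-0.29), LG replicate 3 (-0.30) or any LGV library (-0.23, -0.31 and -0.36), and that of EHMT1 in HGV against HG was lost without HG replicate 2 (-0.30). Exons of SETDB1 overlap CERS2 on the other strand over 948 bases. SETDB2 and SUV39H2 were called in neither VPA comparison.

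JmjC histone demethylases, which need iron and 2-oxoglutarate, had the fewest calls of the larger groups in HGV against HG. There 2 of 10 were lower (20%, near the 20.2% of all genes) and none higher (beside 25.8%). In LGV against LG, 2 were higher (20%, near the 21.7% of all genes) and 3 lower (30%, beside 19.9%). KDM3B, which acts on H3K9, was lower, at -0.70 in HGV against HG and -0.54 in LGV against LG, and KDM4A, which acts on methylated H3K9 and H3K36, at -0.39 and -0.42. KDM4B was lower in LGV against LG only (-0.42). The H3K4 demethylases KDM5A and KDM5B were higher in LGV against LG, by 0.35 and 0.45. Several of these calls were lost when 1 library was left out. KDM4A was not called without HGV replicate 3 in HGV against HG (-0.31), nor without LG replicate 1 (-0.35) or LGV replicate 3 (-0.41) in LGV against LG. KDM5A lost its call without LG replicate 1 (0.34), LG replicate 3 (0.31), LGV replicate 2 (0.28) or LGV replicate 3 (0.35), and KDM5B without LG replicate 1 (0.43) or LGV replicate 2 (0.34). KDM2A, KDM2B, KDM3A, KDM4C and KDM6B were called in neither VPA comparison.

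The de novo DNA methyltransferases DNMT3A and DNMT3B went opposite ways under VPA. DNMT3A was at 97.6, 66.1 and 106 CPM in LG, 111, 99.5 and 98.4 in HG, 41.7, 30.1 and 31.3 in LGV and 40.99, 40.6 and 39.1 in HGV. The VPA libraries were all below the untreated ones (-1.36 ± 0.10, FDR 4.6e-07 in HGV against HG, and -1.38 ± 0.18, FDR 2.24e-05 in LGV against LG). DNMT3B was at 3.74, 3.34 and 6.36 CPM in LG, 8.46, 9.54 and 8.23 in HG, 10.2, 7.24 and 10.5 in LGV and 24.7, 22.8 and 25.7 in HGV. It was higher with VPA in both media (1.48 ± 0.12, FDR 1.3e-06, and 1.06 ± 0.25, FDR 0.00318), with the HGV libraries more than 2 times above any other. DNMT1, the maintenance methyltransferase that follows replication, was at 92.4, 102 and 87.97 CPM in LG, 88.3, 109 and 98.1 in HG, 87.6, 112 and 110.0 in LGV and 144, 125 and 127 in HGV. Libraries of HGV exceeded those of HG (0.43 ± 0.11, FDR 0.00686) and LGV overlapped LG (0.14 ± 0.13, FDR 0.399). Summed over 20 genes of S phase and mitosis, which DNMT1 often accompanies, the libraries held between 1230 and 1497 CPM in HG and between 1221 and 1397 in HGV. In HGV against HG 4 of these genes were higher (20%, beside 25.8% of all genes) and 6 lower (30%, beside 20.2%). In LGV against LG none of the 20 was higher (beside 21.7% of all genes) and 9 were lower (45%, beside 19.9%). Their median log2 fold change was -0.37, and the sums were between 916 and 1198 CPM in LG and between 780 and 999 in LGV. The sums overlapped in both comparisons.

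TET dioxygenases differed from each other. TET3 was at 91.4, 92.4 and 72.7 CPM in LG, 59.03, 54.1 and 46.95 in HG, 51.4, 62.4 and 62.4 in LGV and 40.04, 20.2 and 33.8 in HGV. It was lower with VPA in both media (-0.77 ± 0.20, FDR 0.00729 in HGV against HG, and -0.53 ± 0.13, FDR 0.00423 in LGV against LG), with HGV replicate 2 the lowest library. TET2 was at 10.5, 10.5 and 8.50 CPM in LG, 12.4, 7.87 and 7.98 in HG, 10.7, 11.6 and 11.3 in LGV and 7.11, 6.13 and 9.65 in HGV. Its treated and untreated libraries overlapped in high glucose (-0.31 ± 0.21, FDR 0.265), and in low glucose the LGV libraries lay just above LG without a call (0.20 ± 0.16, FDR 0.348). TET1 was at 8.41, 6.71 and 13.4 CPM in LG, 20.7, 16.9 and 16.3 in HG, 13.7, 9.91 and 11.3 in LGV and 19.7, 11.6 and 21.6 in HGV, and treated and untreated libraries overlapped in both media.

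The VPA changes in the 2 media come from different libraries and can be set side by side. Higher in both were CBX7, DNMT3B, EZH2, HAT1 and KAT2B (71.4% of the 7 in either medium). Lower in both were 23 genes (92% of the 25 in high glucose and 88.5% of the 26 in low glucose), namely BRD1, BRD2, BRD3, BRD8, BRD9, BRPF3, CREBBP, DNMT3A, EHMT1, EHMT2, KAT2A, KAT5, KAT6B, KAT7, KAT8, KDM3B, KDM4A, SETD1A, SETD1B, SETDB1, SUV39H1, TET3 and WHSC1. Past the threshold in high glucose alone were C17orf96 and DNMT1 (higher) and EP300 and SETD2 (lower), and in low glucose alone KDM5A and KDM5B (higher) and DOT1L, EZH1 and KDM4B (lower). No member was called in opposite directions. This was rare among all genes too, with 0.0254% lower in high and higher in low glucose and 0.0635% the reverse. Called in neither medium were 16 members, beside 44.4% of all genes. Of the genes called higher among all 15743 tested in both media, those higher in both were 68.7% of the calls in high glucose and 80.4% of those in low glucose, and for the genes called lower these shares were 71.8% and 73.6%. The members' share of higher genes was thus near that of all genes.

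**Figure D3:**
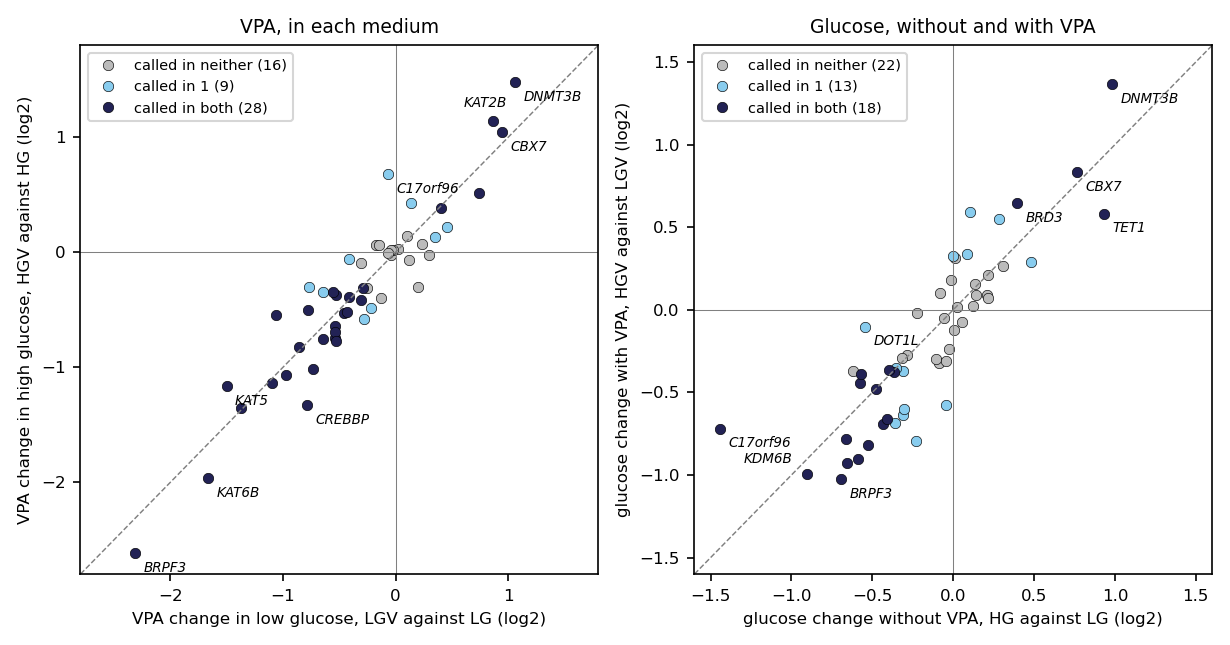
Log2 fold change of the 53 genes for VPA in low glucose (x) against high glucose (y), left, and for glucose without VPA (x) against with VPA (y), right; the dashed line marks equal change, dark points were called in both comparisons (28 and 18), pale blue in 1 (9 and 13) and grey in neither (16 and 22). No dark point lies in a quadrant of opposite signs. C17orf96 lies away from the dashed line, a distance that reflects the same contrast in both panels, the glucose by VPA interaction, for which it was not called.

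Glucose lowered 15 of the 53 genes and raised 5 without VPA. C17orf96 had the largest change, from between 275 and 334 CPM in the LG libraries to between 109 and 118 in HG (-1.44 ± 0.12, FDR 2.3e-07). KDM6B, which removes the H3K27 mark that EZH2 writes, was at 145, 109 and 97.4 CPM in LG, 59.5, 62.8 and 61.8 in HG, 91.3, 103 and 98.2 in LGV and 58.99, 39.5 and 50.3 in HGV. It was lower in HG than in LG and lower in HGV than in LGV, each time without overlap (-0.91 ± 0.14, FDR 0.000158, and -0.99 ± 0.14, FDR 3.36e-05). EZH2 itself was lower in high glucose in both settings (-0.44 ± 0.15, FDR 0.0363 without VPA, and -0.69 ± 0.13, FDR 0.000599 with it). The first of these calls was lost without LG replicate 1 (-0.40), LG replicate 2 (-0.32) or any HG library (-0.41, -0.44 and -0.43). Of the 20 genes of S phase and mitosis, 9 were higher in HG against LG (45%, beside 12% of all genes) and none lower (beside 12.7%). In HGV against LGV 14 were higher (70%, beside 21.2%) and none lower (beside 19.5%). The others were not called, among them CCNB1 (-0.053 and -0.10) and CCNE2 (-0.12 and -0.13). The part of these 20 genes in these results was not tested.

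BRPF3, SETD1A and SETD1B were lower in high glucose as well. BRPF3 was lower in HG than in LG (-0.69 ± 0.15, FDR 0.00291) and in HGV than in LGV (-1.02 ± 0.13, FDR 1.42e-05), from the values given above, so that it was highest in LG and lowest in HGV. SETD1A and SETD1B were lower, at -0.66 and -0.59 in HG against LG and at -0.78 and -0.90 in HGV against LGV. TET3 was lower, at -0.66 ± 0.13 (FDR 0.00174) and -0.93 ± 0.18 (FDR 0.000622) in these comparisons. EP300 was lower, at -0.53 ± 0.13 (FDR 0.00512, and -0.44 and not called without HG replicate 3) and -0.82 ± 0.15 (FDR 0.000327). CREBBP overlapped between HG and LG (-0.23 ± 0.13, FDR 0.199) and was lower in HGV than in LGV (-0.80 ± 0.14, FDR 0.00029). DOT1L was lower in HG than in LG only (-0.54 ± 0.13, FDR 0.00571).

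BRD2 was lower, at -0.58 in HG against LG and -0.45 in HGV against LGV, KDM3A at -0.57 and -0.39, KDM4A at -0.48 and -0.48, KDM5A at -0.41 and -0.66, KDM2A at -0.39 and -0.36, and KAT6A at -0.36 and -0.38. KDM2A and KDM2B demethylate H3K36, and of these 2 only KDM2A was called. Lower with VPA present only were KAT6B (-0.69), SETD2 (-0.63), SETDB2 (-0.60), TET2 (-0.57 ± 0.17, FDR 0.0135), BRD1 (-0.37) and BRPF1 (-0.35). TET2 had overlapped between HG and LG (-0.044 ± 0.19, FDR 0.889). Whether these genes respond differently to glucose with and without VPA is the interaction below, which called none of them.

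A part of the weaker glucose calls was lost when 1 library was left out. In HG against LG, KDM3A was not called without HG replicate 3 (-0.47), nor KDM4A without LG replicate 1 (-0.39) or HG replicate 3 (-0.41). KDM2A was not called without LG replicate 1 (-0.32), LG replicate 2 (-0.35) or any HG library (-0.39, -0.43 and -0.33). KDM5A and KAT6A were not called without LG replicate 1 (-0.40 and -0.34), LG replicate 2 (-0.31 and -0.29), HG replicate 2 (-0.40 and -0.35) or HG replicate 3 (-0.29 and -0.28). In HGV against LGV, leaving out LGV replicate 2 or 3 ended the calls of BRD1 (-0.30 and -0.37), BRPF1 (-0.29 and -0.35), KAT6A (-0.32 and -0.36), KDM2A (-0.28 and -0.35) and KDM3A (-0.35 and -0.35). Leaving out HGV replicate 1 ended those of BRPF1 (-0.37), KDM3A (-0.31) and TET2 (-0.52), HGV replicate 2 those of KAT6A (-0.24) and KDM3A (-0.26), and HGV replicate 3 those of BRD1 (-0.33), BRPF1 (-0.33) and KDM2A (-0.34).

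DNMT3B, TET1, CBX7 and BRD3 were higher in high glucose both without and with VPA. DNMT3B averaged 4.48 ± 1.64 CPM (SD, n = 3) in LG and 8.75 ± 0.698 in HG (0.98 ± 0.22, FDR 0.00413), and 9.33 ± 1.81 in LGV and 24.4 ± 1.46 in HGV (1.37 ± 0.15, FDR 4e-06). TET1 was higher in HG than in LG (0.94 ± 0.21, FDR 0.00339) and in HGV than in LGV (0.58 ± 0.20, FDR 0.0239), the second time with HGV replicate 2 inside the LGV range. CBX7 was higher by 0.76 ± 0.18 (FDR 0.00542) and 0.83 ± 0.15 (FDR 0.000279), and BRD3 by 0.39 and 0.64. Exons of BRD3 overlap LINC00094 on the other strand over 1283 bases. CBX2 was higher without VPA only (0.48), and BRD9 (0.59 ± 0.16, FDR 0.00775), EZH1 (0.55), DNMT1 (0.34 ± 0.13, FDR 0.0394) and KDM4B (0.33) with VPA only. DNMT1 overlapped between HG and LG (0.086 ± 0.13, FDR 0.654). Of these calls, BRD3 in HG against LG was lost without LG replicate 1 (0.45), LG replicate 2 (0.36) or HG replicate 2 (0.24) and CBX2 without HG replicate 2 (0.42). In HGV against LGV, TET1 was lost without LGV replicate 2 (0.48), LGV replicate 3 (0.56), HGV replicate 1 (0.50) or HGV replicate 3 (0.41), DNMT1 without LGV replicate 1 (0.24), LGV replicate 3 (0.39), HGV replicate 1 (0.28) or HGV replicate 3 (0.37), KDM4B without LGV replicate 2 (0.31), LGV replicate 3 (0.33), HGV replicate 1 (0.32) or HGV replicate 3 (0.32), EZH1 without LGV replicate 2 (0.44) or HGV replicate 1 (0.43), and BRD9 without LGV replicate 2 (0.43).

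**Figure D4:**
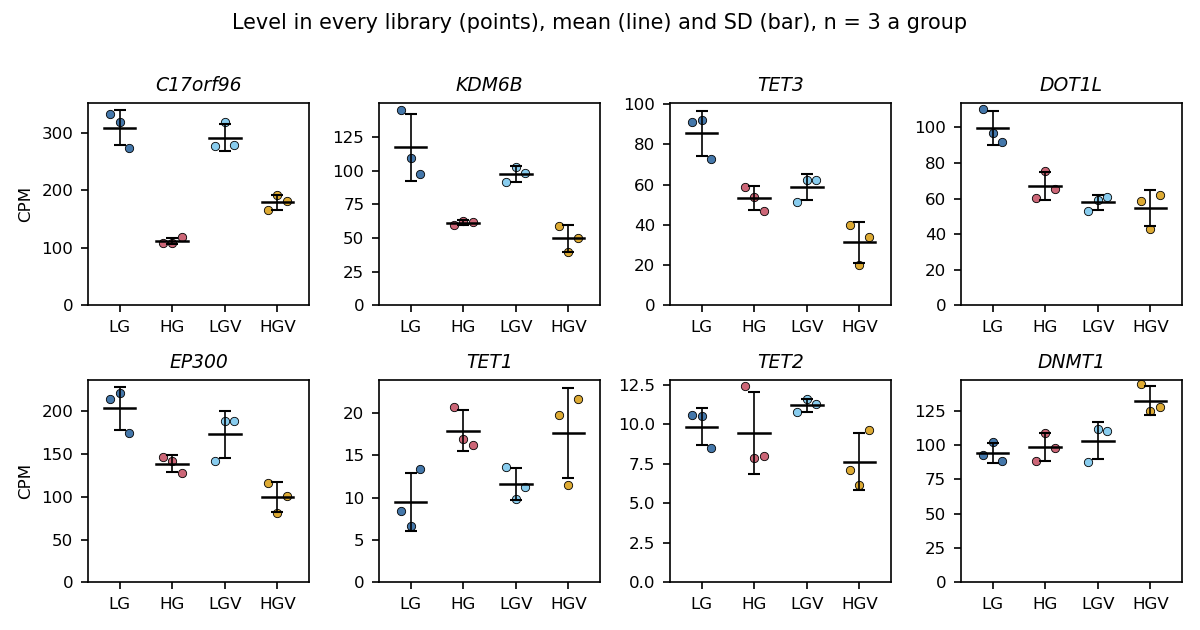
Level (CPM, axis from 0) of 8 genes in every library (points, coloured by group), with the mean (line) and SD (bar) of the 3 libraries of LG, HG, LGV and HGV. C17orf96, KDM6B, TET3 and EP300 lie lower in HG than in LG and lower in HGV than in LGV, TET1 lies higher in HG than in LG, and the TET2 libraries of HG and LG overlap.

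The glucose changes without and with VPA share no libraries either. Higher in both were 4 genes (80% of the 5 without VPA and 50% of the 8 with it) and lower in both were 14 (93.3% of 15 and 66.7% of 21). Among all 15271 genes tested in both, the corresponding shares were 73.6% and 42.9% for higher genes and 77.4% and 48.8% for lower genes. No member was called in opposite directions, and 22 were called in neither. The shares of all genes for these last counts were not determined, so they are not read as a trait of the members. Comparisons that share libraries are given above by their own values only.

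Whether the VPA change of a gene differed between the media was asked with the interaction over all 12 libraries. None of the 53 genes was called, beside 0.0427% of the 16389 genes tested (7 genes, 0.0244% higher and 0.0183% lower). At an unadjusted p of 0.05 or less, 4 of the 53 genes passed in edgeR, beside 11.3% of all genes. C17orf96 had the smallest p, with a VPA change 0.76 ± 0.16 higher on the log2 scale in high than in low glucose (95% interval 0.43 to 1.10, FDR 0.0627). DESeq2's Wald test called it, and so did edgeR without LG replicate 2 (0.70) or LG replicate 3 (0.84). In these fits 0.988%, 1.33% and 0.41% of all genes were called, more than in the main fit. CREBBP (-0.52 ± 0.20, 95% interval -0.94 to -0.10, FDR 0.31) and DOT1L (0.48 ± 0.19, 95% interval 0.082 to 0.89, FDR 0.328) came next. For BRPF3 the interval ran from -0.73 to 0.16, for EZH2 from -0.62 to 0.19, for DNMT1 from -0.063 to 0.66 and for TET2 from -1.06 to 0.079. Intervals this wide leave room for differences of about the size of many VPA changes above.

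Levels of different genes were compared as CPM per kb of the canonical transcript. Reads were counted per gene, so the order depends on the length chosen. KAT8, for example, has 1495 canonical bases and 5726 exon bases, and BRPF3 has 6052 and 6613. In LG, C17orf96 (94.99 ± 9.46 CPM per kb), BRD2 (89.4 ± 9.83), KAT8 (49.95 ± 3.49) and BRPF3 (41.7 ± 10.4) stood highest and KAT2B (0.733 ± 0.210), TET1 (0.988 ± 0.359), TET2 (1.03 ± 0.121) and DNMT3B (1.03 ± 0.378) lowest. The order was tight between these ends, and 47 of the 52 neighbours in it overlapped in their LG libraries. BRPF3 moved from rank 4 in LG to rank 27 in LGV and from rank 6 in HG to rank 42 in HGV.

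**Figure D5:**
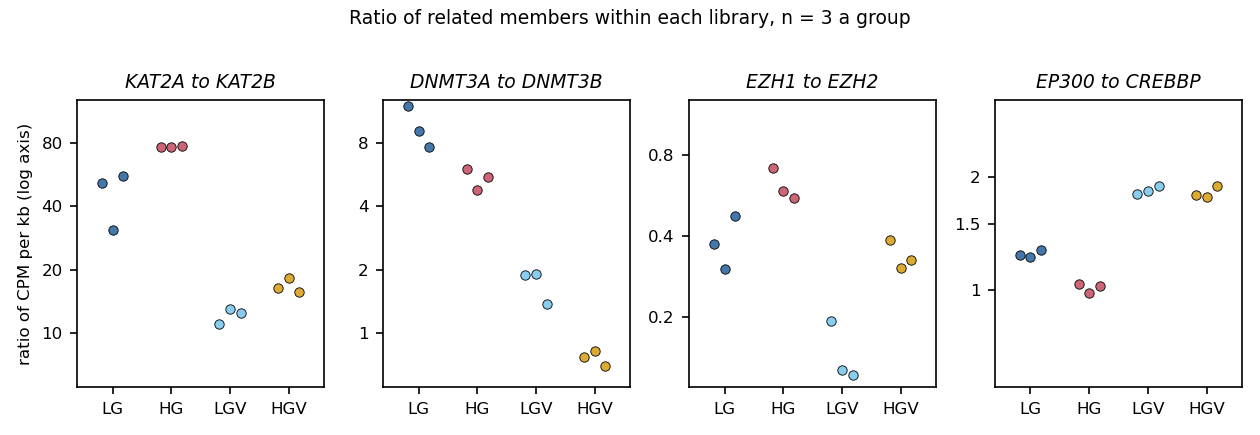
Ratio of the levels per kb of 4 pairs of related genes within each library (points, log axis), 3 libraries in each of LG, HG, LGV and HGV. The ratio of KAT2A to KAT2B and that of DNMT3A to DNMT3B lie lower in every VPA library than in every untreated one, and that of EP300 to CREBBP lies higher.

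Ratios of related genes within a library do not depend on the scaling between libraries, but as levels per kb they depend on the transcript lengths. The pairs were chosen after their values were seen and are given without a test. KAT2A exceeded KAT2B by 46.1 ± 13.3 times in LG and 77.1 ± 0.751 times in HG, and by 12.1 ± 1.02 times in LGV and 16.7 ± 1.31 times in HGV (mean ± SD, n = 3). DNMT3A exceeded DNMT3B by 9.60 ± 2.21 times in LG and 5.44 ± 0.615 times in HG. The ratio was 1.72 ± 0.306 in LGV, and in HGV DNMT3B stood above DNMT3A per kb (0.764, 0.818 and 0.699 in HGV as DNMT3A to DNMT3B). Which gene stood above there depended on the canonical lengths, 9421 bases for DNMT3A and 4336 for DNMT3B. In reads, DNMT3A stayed above DNMT3B in HGV (1337, 1707 and 1328 beside 805, 961 and 875). EZH1 to EZH2 was 0.384 ± 0.0860 in LG, 0.622 ± 0.0846 in HG, 0.148 ± 0.0396 in LGV and 0.341 ± 0.0424 in HGV. EP300 to CREBBP was 1.25 ± 0.0291, 1.01 ± 0.0288, 1.84 ± 0.0432 and 1.82 ± 0.0679 in the same order. KDM5A to KDM5B was 0.717 ± 0.0238, 0.556 ± 0.0355, 0.669 ± 0.0335 and 0.523 ± 0.0649. It was lower in each HG library than in each LG library and lower in each HGV library than in each LGV library.

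Partner subunits and other enzymes of the same complexes were taken from a second list, of which 139 of 144 symbols were in the table. In HGV against HG 81 of 139 were called (58.3%, beside 46.1% of all genes). Of these, 21 were higher (15.1%, beside 25.8%) and 60 lower (43.2%, beside 20.2%). In LGV against LG 72 of 139 were called (51.8%, beside 41.6%), 24 higher (17.3%, beside 21.7%) and 48 lower (34.5%, beside 19.9%). In HGV against LGV 68 of 139 were called (48.9%, beside 40.7%), 17 higher (12.2%, beside 21.2%) and 51 lower (36.7%, beside 19.5%). In HG against LG 35 of 138 tested were called, a share of 25.4% that lay near the 24.7% of all genes. Of these 35, 13 were higher (9.42% of the 138, beside 12%) and 22 lower (15.9%, beside 12.7%). That count fell to 12 without LG replicate 1, 17 without LG replicate 2, 21 without HG replicate 1 and 11 without HG replicate 3. Among all genes the share called was 12.5%, 16.6%, 17.4% and 13.5% in the same fits. The partners of acetyltransferase complexes had 24 of 42 lower (57.1%, beside 20.2% of all genes) and 4 higher (9.52%, beside 25.8%) in HGV against HG. In LGV against LG 18 were lower (42.9%, beside 19.9%) and 4 higher (9.52%, beside 21.7%). The lowest changes in HGV against HG were those of PHF19, a PRC2 accessory protein (-1.70 ± 0.14, FDR 1.24e-06), JADE2, a KAT7 scaffold (-1.61 ± 0.12, FDR 5.23e-07), and EPC2, a TIP60 complex subunit (-1.59 ± 0.15, FDR 3.75e-06). In LGV against LG they were those of TADA2A, an adaptor of KAT2A and KAT2B (-1.53 ± 0.24, FDR 0.000118), EPC1, a further TIP60 complex subunit (-1.32 ± 0.13, FDR 1.74e-06), and ING5, a reader in KAT6 and KAT7 complexes (-1.28 ± 0.12, FDR 1.17e-06).

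The same 3 genes led the higher changes in both media. SETD7, which monomethylates H3K4, was at 0.561, 0.699 and 0.562 CPM in LG, 1.01, 1.29 and 0.644 in HG, 8.52, 9.26 and 9.53 in LGV and 8.22, 6.28 and 5.38 in HGV. It rose by 3.90 ± 0.23 in LGV against LG (FDR 2.29e-08) and 2.75 ± 0.26 in HGV against HG (FDR 3.21e-06) on the log2 scale. L3MBTL3, a reader of methylated lysine, rose by 2.99 ± 0.20 (FDR 6.97e-08) and 2.33 ± 0.16 (FDR 2.5e-07). CECR2, a bromodomain protein, had 5, 2 and 1 reads in LG, 4, 2 and 0 in HG, 262, 220 and 303 in LGV and 160, 144 and 100 in HGV. It was called in both media, and no fold is given because its untreated counts were near the floor of 3 reads. In HG against LG the highest changes were those of UHRF1 (1.12 ± 0.22, FDR 0.00134) and HELLS (1.00 ± 0.20, FDR 0.00134), cofactors of maintenance methylation, and the lowest those of ZBTB38, a methyl-CpG binding protein (-1.47 ± 0.16, FDR 5.38e-06), and PHF1, a PRC2 accessory protein (-0.72 ± 0.15, FDR 0.00223). UHRF1 and HELLS are known to rise in S phase, and the summed S phase and mitosis genes lay between 916 and 1198 CPM in LG and between 1230 and 1497 in HG. Their part in these changes was not tested.

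Exons of 16 of the 53 genes overlap another gene of the table. The overlap was longest for BRD7 with ADCY7 (3593 bases, other strand), and DOT1L overlaps PLEKHJ1 over 529 bases and KDM4A overlaps KDM4A-AS1 over 473 bases (both other strand), and TET3 overlaps AC073046.25 on the same strand over 390 bases. Reads in such stretches cannot be assigned with certainty where the counting did not use strand. The genes were also longer and richer in GC than most (median exon length 7872 bases beside 4710, and 53.8% GC beside 49.3%), so that the splits under the GC and length offsets given above bear on them directly. These offsets ended the calls of DNMT1 and HAT1 in HGV against HG, of HAT1, KDM5A and KDM5B in LGV against LG, and of DNMT1, KAT6A, KDM3A and KDM4B in HGV against LGV, and they gave no value for C17orf96, which was placed by symbol. Without TMM factors, EHMT1, EP300, KDM4A, SETD2 and WHSC1 were not called in HGV against HG, nor BRD8, EHMT2, EZH1, KDM4A, KDM4B, SETD1A and WHSC1 in LGV against LG, nor EZH2, KAT6A, KDM2A and KDM5A in HG against LG, nor BRD1, BRPF1, KAT6A, KDM2A, KDM3A and TET2 in HGV against LGV.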

How the data were processed

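RNA with poly(A) tails from 12 HepG2 samples had been sequenced by the authors, 3 for each of LG, HG, LGV and HGV, with groups taken from the sample titles. The authors aligned the reads to GRCh37 with STAR, counted them per gene with featureCounts and deposited the raw counts of 16389 genes with no normalization. Genes averaging fewer than 10 reads were left out by them. Whether the counting used strand is not stated.

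Tests used edgeR 4.0.16 (R 4.3.3) on genes whose mean count reached 10 in the libraries compared (TMM factors, quasi-likelihood F test, Benjamini-Hochberg over all genes tested, FDR of 0.05 or less). The SE is the log2 fold change over the square root of F. The 4 comparisons used 6 libraries each and the interaction all 12. The edgeR test was tested on simulated data. Figures and ratios were made in Python 3.11.15 (pandas 2.3.3, matplotlib 3.10.9). Gene models came from GENCODE (GRCh37), where 97.47% of all identifiers were found, and promoters from RefSeq. DESeq2 1.42.0, other scalings, filters and thresholds, a replicate block, a single fit of all libraries and the loss of each library were alternatives. Offsets for GC content and length (spline with 5 degrees of freedom) were added after seeing the data.

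The members and lists were chosen with earlier results of these data known. Levels in every library are given for the 12 genes with the largest change among those called under VPA, the 6 and 4 largest for glucose without and with VPA, the 3 smallest interaction p, and always EP300, CREBBP, TET2, BRPF3, EZH2 and DNMT1. The floor of 3 reads covers counting error only.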

Additional observations from a re-analysis of the deposited data

How the results depend on the processing

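Most counts of called genes moved by less than 1.5 times. At an FDR of 0.01, 13 genes were called in HG against LG (beside 12% of all genes) and 19 in HGV against LGV (beside 26.3%). When 1 library was left out, the calls ran from 13 (without HG replicate 3) to 26 in HG against LG, from 29 to 34 in HGV against HG, from 26 to 32 in LGV against LG and from 20 to 33 in HGV against LGV, and from 0 to 1 for the interaction (1, C17orf96, without LG replicate 2 or 3). Among all genes the share called in these fits ran from 12.5% to 34.6% in HG against LG and from 37.6% to 48.5% in HGV against HG. It ran from 31.1% to 43.8% in LGV against LG and from 27.9% to 44.7% in HGV against LGV. For the interaction it ran from 0.00611% to 1.33%. DESeq2's Wald test also gave 1 interaction call (beside 0.988% of all genes). No called gene changed sign under any alternative. Signs turned only for uncalled values near 0. For TET2 in HG against LG these were 0.061 with library size alone, 0.030 and 0.035 without LG replicates 1 and 2, and 0.058 and 0.10 without HG replicates 2 and 3, in a range from -0.27 to 0.10. For DNMT1 in HG against LG the value was -0.0054 without HG replicate 2, in a range up to 0.17. With the GC and length offset, DNMT1 and TET2 in LGV against LG were at -0.075 and -0.026, and with library size alone C17orf96 in LGV against LG was at 0.090.

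Whether replicate numbers pair the samples was not settled. The correlations of deviations for pairs of the same number ran from -0.295 to 0.414, and in no comparison were all 3 above 0.1. Deviations centred on 3 libraries per group are too few for these correlations to exclude a pairing. Over all genes, the replicate block moved the share called from 24.7% to 21.7% in HG against LG. It moved from 46.1% to 50.8% in HGV against HG, 41.6% to 43.7% in LGV against LG and 40.7% to 45.1% in HGV against LGV. With the replicate block, 15 genes were called in HG against LG (BRD3, EZH2, KAT6A, KDM2A and KDM5A were lost), 36 in HGV against HG, 32 in LGV against LG (WHSC1 was lost), 33 in HGV against LGV and 0 for the interaction. Depth limits the least counted genes, such as KAT2B, whose 63 reads in 1 HG library carry a counting CV of 12.6%.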
